A study of Mus musculus with 12 samples.

Results

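The change from day 1 to day 3 of osteogenic induction was measured in WT neonatal calvarial osteoblasts, cells grown out of the skull vault bones of newborn mice. It rests on 6 of the 12 libraries of the series, 3 at each day, picked by their labels, and on the 16318 of 49585 mouse genes in the count table that passed a filter on low counts. The donors were C57BL/6J pups aged 3 to 5 days, and up to 3 calvariae were pooled into a replicate, so a replicate stands for a pool of pups. The labels give 3 WT cultures, coded W1, W2 and W4, each with a library at both days. All libraries of both days came from cells in medium with 50 µg/mL ascorbic acid, a cofactor of collagen maturation, and 2 mM β-glycerophosphate, a phosphate donor. No library without this medium was part of the comparison, so the length of induction and the length of culture after confluence cannot be told apart. The other 6 libraries, labelled Bcl3-/- and from the same strain, medium and days, entered the fit for its estimate of spread and for a test of whether the change over time differed between genotypes. Bcl3 itself was at 17.5, 19.7 and 19.2 CPM at day 1 in the libraries labelled Bcl3-/- and at 18.0, 21.8 and 17.8 CPM in WT, and at 10.2, 9.72 and 8.31 CPM against 14.8, 15.9 and 12.8 CPM at day 3. A count per gene does not say where in Bcl3 a read lay, so these values could not check the genotype labels.

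Osteoblasts arise from mesenchymal precursors under the transcription factors RUNX2 and osterix, the product of Sp7. They multiply, leave the cell cycle as they lay down a matrix rich in type I collagen, and later mineralize that matrix with the help of alkaline phosphatase. Wnt and bone morphogenetic protein (BMP) signals promote this course, and secreted antagonists of both families hold it back.

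Expression is given as CPM (reads of a gene scaled to a common library size) after TMM normalization, a scaling for library composition, always in the order of cultures W1, W2 and W4. Changes are log2 fold changes of day 3 over day 1 with the standard error (SE) from edgeR's quasi-likelihood test, 3 libraries per group, and a gene rose or fell where its P value, adjusted over all 16318 genes by the Benjamini-Hochberg method, was under 0.05. The WT libraries held 21010081 to 41953891 reads in genes, and 13.2% to 14.7% of counted reads were assigned to no gene. Of counted reads, 11.4% to 12.8% did not align uniquely, 1.72% to 1.90% were ambiguous between genes and 0.0942% to 0.148% lay outside genes. The 50 most abundant genes took 18.3% to 20.2% of gene reads at day 1 and 23.3% to 24.0% at day 3. Sex-linked transcripts followed the culture codes: Ddx3y, a Y-linked RNA helicase, was at 2.13, 66.6 and 18.9 CPM at day 1 and 2.04, 69.5 and 27.7 CPM at day 3, and Xist, which silences an X chromosome in female cells, was at 75, 29 and 50.9 CPM at day 1 and 68.7, 30.2 and 65.5 CPM at day 3. Culture W1 was thus low for the Y-linked transcript and W2 high at both days, with W4 between them.

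Of the 16318 genes, 3359 rose (20.6%) and 2925 fell (17.9%), 6284 (38.5%) in all, and the median log2 fold change was 0.00135. Changes of over 1 log2 were more often rises, with 1149 genes up (7.04%) and 422 down (2.59%), 1571 (9.63%) in all. Of the 6284 called genes, 6259 moved the same way in all 3 cultures and 25 had 1 culture the other way, while 11229 of all genes tested (68.8%) kept 1 direction in the 3 cultures. The day 1 and day 3 libraries did not overlap for 6070 of the called genes, against 7964 of all genes (48.8%). Rises made up 53.5% of calls in this fit of the counts and 47.7% (2379 up, 2613 down, without the day 1 W2 library) to 54.3% with 1 library left out. In limma fits they made up 40.6%, 41.5% and 39.4% on log2(FPKM + 1), on log2(FPKM + 0.1) and on genes with FPKM of at least 1 in 3 libraries. These fits changed the unit and the test together, and the parts of each in the balance were not tested.

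**Figure D1:**
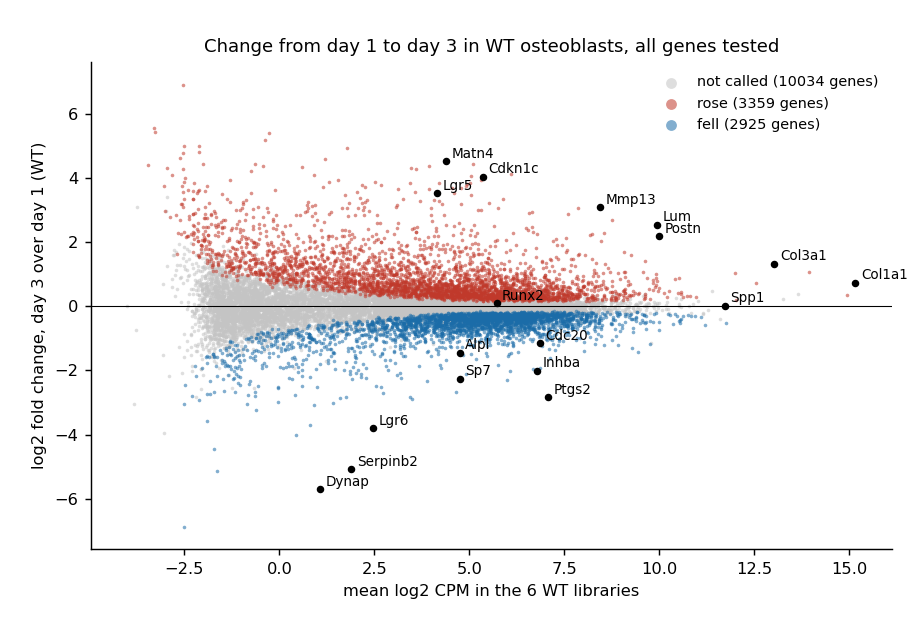
Each point is 1 of the 16318 genes tested, with the mean log2 CPM of the 6 WT libraries on the x axis and the log2 fold change of day 3 over day 1 on the y axis. The 3359 rises (red) and 2925 falls (blue) lie across the whole range of levels, and named genes are in black, from Dynap at -5.70 to Matn4 at 4.51.

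The day 1 library of culture W4 lay nearest to day 3. It was the highest of the 3 day 1 libraries for 2216 of the 3359 rises (66.0%) and the lowest for 1661 of the 2925 falls (56.8%). Without it 6028 genes were called, 3056 up and 2972 down. Where leaving out 1 of the 12 libraries moved the count of a gene list by over 1.5 times, the range over these fits is given beside the count below.

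The test of a different change between genotypes called 150 genes (0.919%), with 25 changes higher and 125 lower where the label was Bcl3-/-. Leaving out any 1 of the 12 libraries gave between 3 and 488 such genes, 488 without the day 1 W4 library. Of the 26 genes named in the text that had such a call, 1, Mmp13, was called in all 12 of these fits. Over time alone, 33.3% of genes were called in the libraries labelled Bcl3-/-, 16.2% up and 17.1% down.

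The plot of 15 gene lists shows every tested member of each. Over all genes 20.6% rose and 17.9% fell, and each list count below stands beside these shares. In bulk RNA, fewer cells of a type and less RNA per cell cannot be told apart, which holds for every group below.

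**Figure D2:**
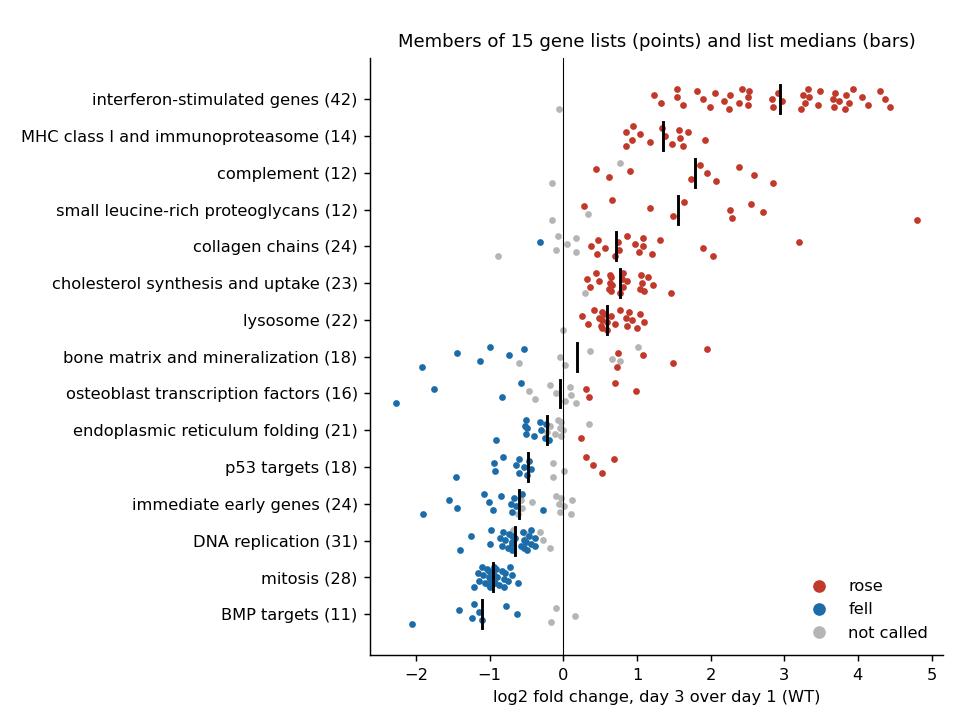
Points are the tested members of 15 gene lists (number tested in parentheses) and black bars are list medians, on an axis of log2 fold change, day 3 over day 1 in WT. Medians run from 2.94 for interferon-stimulated genes to -1.11 for BMP targets. Red, blue and grey mark members that rose, fell or were not called.

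Osteoblast transcription factors split. Of 16 measured, 4 rose (2 to 4 with 1 library left out) and 4 fell, 50.0% against the 38.5% of all genes, with a median of -0.04. Sp7, at chr15:102356606-102367182 on GRCm38, encodes osterix, which acts downstream of RUNX2 in osteoblast commitment, and it went from 65.2, 70.6 and 43.4 CPM to 10.2, 12.8 and 14.1 CPM (log2 fold change -2.27 ± 0.21 (SE), adjusted P = 1.79e-05). All 3 day 3 libraries lay below all 3 day 1 libraries. Runx2 itself was not called, at 48.7, 50.7 and 53.2 CPM at day 1 and 51.9, 51.5 and 59.2 CPM at day 3 (log2 fold change 0.09 ± 0.10 (SE), adjusted P = 0.525). Alx4, from 90.9, 86.9 and 84 CPM to 61.2, 57.4 and 56.6 CPM (-0.58 ± 0.09), and Dlx3 (-1.76), homeobox factors of the skull, were among the falls, although Dlx3 stayed under 1 CPM in all 6 libraries. The rises were Zfp521, a RUNX2 antagonist, from 41.3, 45.7 and 75 CPM to 93.2, 99.1 and 129 CPM (0.98 ± 0.20), Mef2c (0.70), a myocyte enhancer factor also used in bone cells, Foxc1 (0.35), a forkhead factor of skull development, and Atf4 (0.31), which drives amino acid supply and osteoblast maturation.

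Of 18 bone matrix and mineralization genes, 5 rose, 6 fell (61.1% called in all) and 7 were not called, with a median of 0.19. The collagen I chains gained the most reads of all called genes: Col1a1 (chr11:94936224-94953042) went from 22628, 29643 and 33272 CPM to 47045, 46164 and 49263 CPM (log2 fold change 0.74 ± 0.11 (SE), adjusted P = 0.000319), and Col1a2 went from 8546, 11116 and 12944 CPM to 21199.8, 23350.1 and 24367 CPM (1.08 ± 0.13). Together they are the major protein of bone. Sparc, or osteonectin, a collagen-binding glycoprotein, rose from 4154, 4760.5 and 5163 CPM to 6641, 8615 and 8128 CPM (0.73 ± 0.11), and Mgp, an inhibitor of calcification, rose from 59.8, 89 and 109.7 CPM to 177, 318 and 229 CPM (1.48 ± 0.32).

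The 6 falls were of genes of phosphate or mineral handling. Alpl, tissue-nonspecific alkaline phosphatase, went from 39.5, 48.7 and 46.8 CPM to 10.6, 19.5 and 19.3 CPM (log2 fold change -1.45 ± 0.23 (SE), adjusted P = 0.000522). Enpp1, which makes the mineralization inhibitor pyrophosphate, went from 114, 104 and 74.5 CPM to 53.9, 49 and 30.8 CPM (-1.13 ± 0.21). Ank, which moves pyrophosphate and ATP out of the cell, had a log2 fold change of -0.74. The phosphate importer Slc20a1 fell from 416, 339.8 and 241 CPM to 239, 159 and 101 CPM, and Slc20a2 fell too (-0.53). Smpd3, a sphingomyelinase needed for skeletal mineralization, fell from 1.22, 2.12 and 2.64 CPM to 0.598, 0.675 and 0.351 CPM (-1.92 ± 0.37), at low levels. Phospho1, a phosphatase of matrix vesicles, was not called, at 0.407, 0.455 and 0.586 CPM at day 1 and 0.317, 0.368 and 0.702 CPM at day 3 (-0.05 ± 0.48, adjusted P = 0.955). For Slc20a1 and Enpp1 the W4 culture was lowest at both days.

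Osteocalcin, a late marker of the lineage, had low read counts. Bglap2, an osteocalcin gene, rose from 0.271, 0.364 and 0.586 CPM to 1.02, 2.18 and 1.68 CPM (log2 fold change 1.95 ± 0.40 (SE), adjusted P = 0.00219), and Bglap stood at 0.136, 0.25 and 0.506 CPM at day 1 and 0.387, 0.706 and 0.778 CPM at day 3 (1.01 ± 0.45, adjusted P = 0.0959). The osteocalcin genes are near-identical copies, and reads that did not align uniquely were counted for no gene. Their counts may thus be too low, and their separate values are uncertain. Deposited FPKM values of Bglap2 were 2.06, 2.99 and 6.48 at day 1 and 7.24, 13.4 and 13.2 at day 3. Among 4 tested osteocyte genes 1 rose (0 to 2 with 1 library left out). This was Dmp1, a mineral-binding matrix protein, which went from 0.0905, 0.159 and 0.639 CPM to 1.09, 0.675 and 1.08 CPM (1.59 ± 0.50). Phex, a peptidase of phosphate control, was not called (1.06 ± 0.43, adjusted P = 0.068, and 0.00944 with culture as a block). Podoplanin (Pdpn), an early osteocyte marker, was at 152, 162 and 178 CPM at day 1 and 169, 167 and 175 CPM at day 3 and not called (0.05 ± 0.09, adjusted P = 0.696), nor was Irx5, a homeobox factor (0.12 ± 0.09, adjusted P = 0.311). Mepe, Sost, Fgf23 and Dkk1 did not pass the filter.

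The secreted sialoproteins were not called. Spp1, osteopontin, was not called, at 2782, 3482 and 3799 CPM at day 1 and 3317, 3799 and 3095 CPM at day 3 (0.02 ± 0.16, adjusted P = 0.934). Ibsp, bone sialoprotein, was at 0.678, 1.12 and 18.9 CPM at day 1 and 3.13, 6.14 and 4.57 CPM at day 3. It was higher at day 3 in W1 and W2 and lower in W4, whose day 1 library stood far above the others, and the groups overlapped (-0.60 ± 0.97, adjusted P = 0.671). Without the day 1 W4 library the fitted Ibsp change was 2.28 (adjusted P = 0.00443).

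**Figure D3:**
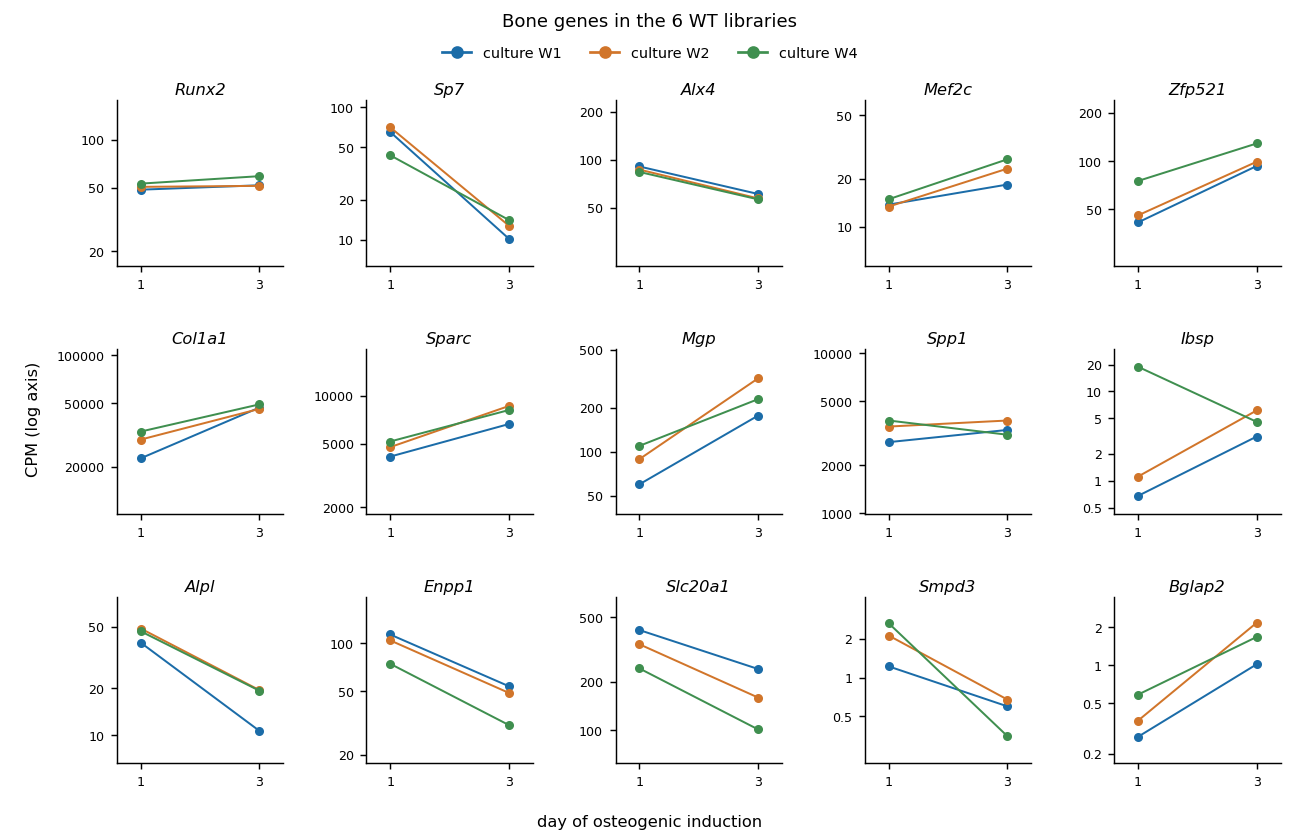
CPM (log axis) of 15 bone genes at day 1 and day 3, a line per WT culture. Sp7, Alx4, Alpl, Enpp1, Slc20a1 and Smpd3 go down in all 3 cultures, Col1a1, Sparc, Mgp, Mef2c, Zfp521 and Bglap2 go up in all 3, and the lines of Spp1 and Ibsp cross.

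Collagen chains rose as a group: 17 of 24 rose and 1 fell (0 to 1 with 1 library left out), with a median of 0.72. Beside the type I chains, Col3a1, a fibrillar collagen of soft connective tissue, went from 4031, 4898 and 7164 CPM to 12903, 13064 and 14115 CPM (log2 fold change 1.32 ± 0.17 (SE), adjusted P = 0.000132). Col14a1, a fibril-associated collagen, had the largest change of the list, from 6.24, 7.38 and 15.2 CPM to 65.2, 76.4 and 126 CPM (3.20 ± 0.36). The network-forming Col8a2 (2.03), the basement membrane collagen Col15a1 (1.89) and the fibril-nucleating Col11a1 (1.20) also rose. Col5a1, which nucleates collagen I fibrils, was the exception and fell from 2059, 2218 and 1862 CPM to 1821, 1689 and 1442 CPM (-0.31 ± 0.10). In the deposited FPKM table Col1a1 is listed at 0 in 5 of the 6 WT libraries, while its read counts gave 22628 to 49263 CPM, so its FPKM values were not used.

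Of 28 collagen processing genes tested, 12 rose and 4 fell (median 0.16). Rises included the amino-propeptidase Adamts2, from 45.5, 54.2 and 72.9 CPM to 178, 204 and 228 CPM (1.82 ± 0.15), the propeptidase enhancer Pcolce (0.90) and the prolyl 3-hydroxylase complex members P3h3 (0.80) and Crtap (0.49). The other propeptidase enhancer, Pcolce2, fell from 38, 34.7 and 27.1 CPM to 7.21, 7.46 and 5.12 CPM (-2.34 ± 0.19). Lysyl oxidase Lox fell from 4384, 4147 and 3889 CPM to 3035, 2718 and 2853 CPM (-0.53 ± 0.12), and Loxl4 (-0.69) and lysyl hydroxylase Plod3 (-0.46) fell as well, whereas Plod1 rose (0.33).

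Small leucine-rich proteoglycans, which bind collagen fibrils and set their width, rose in 10 of 12 with no fall (median 1.56). Lumican (Lum, chr10:97565128-97572703) went from 293, 294 and 715 CPM to 1924, 2474 and 3187 CPM (log2 fold change 2.54 ± 0.32 (SE), adjusted P = 0.00015), and decorin (Dcn) from 115, 117 and 313 CPM to 822, 1076 and 1656 CPM (2.70 ± 0.39). Osteoglycin (Ogn, 2.27), asporin (Aspn, 2.29), osteomodulin (Omd, 1.18) and biglycan (Bgn, 0.28) rose with them. The day 1 W4 library was the highest of the day 1 libraries for each of these 6 genes. Keratocan (Kera) was at 0, 0.0228 and 0.0266 CPM at day 1, and so rested on very few reads, and at 0.528, 0.675 and 0.702 CPM at day 3. Markers of tendon cells and fibroblasts rose in the same libraries, 10 of 13 with no fall, from a summed level of 991 to 1168 CPM at day 1 to 1468 to 1801 CPM at day 3, and their part in the rises of proteoglycans and collagens was not tested.

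Elastic fibre genes were mixed (8 rose and 3 fell of 17, median 0.28). Microfibril proteins rose, with Mfap2 from 9.95, 15.9 and 19.8 CPM to 48.8, 116 and 101 CPM (2.53 ± 0.33), Mfap4 (2.33), the fetal fibrillin Fbn2 (1.36) and Fbln1 (1.08). The 3 that fell, Ltbp1 (-0.78), Ltbp2 (-0.88) and Ltbp4 (-0.51), are all latent TGF-beta binding proteins. Matricellular proteins also split, 8 up and 3 down of 18. Periostin (Postn), a product of periosteal cells, went from 428, 468 and 553 CPM to 1979, 2026 and 2548 CPM (log2 fold change 2.18 ± 0.16 (SE), adjusted P = 5.74e-06). Thbs2 (1.03), Spon1 (1.58), Sparcl1 (1.81) and Ccn3 (1.46) rose. Tenascin-W (Tnn) fell from 241, 284 and 166 CPM to 50.8, 79.1 and 53.1 CPM (-1.92 ± 0.21), along with Ccn1 (-1.16) and Ccn2 (-1.29). Fibronectin (Fn1) stood at 12051, 10135 and 12241 CPM at day 1 and 19396, 11709.5 and 13505 CPM at day 3 and was not called (0.37 ± 0.18, adjusted P = 0.129).

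Every rise among matrix proteases and inhibitors was of a protease. In this list 13 of 22 rose and 2 fell (median 0.60), and both falls were tissue inhibitors of metalloproteinases, Timp3 from 1459.8, 1116 and 863 CPM to 412, 405 and 466 CPM (-1.42 ± 0.17) and Timp1 (-1.20). Collagenase 3 (Mmp13, chr9:7272514-7283331) went from 123, 93.1 and 142 CPM to 1121, 979 and 953 CPM (log2 fold change 3.09 ± 0.18 (SE), adjusted P = 3.05e-06), or 3.18, 3.39 and 2.74 log2 in the 3 cultures. Stromelysin 1 (Mmp3, 3.20), the gelatinases Mmp2 (0.74) and Mmp9 (2.02), and membrane-bound Mmp14 (0.80) rose as well. The Mmp13 change was smaller in the libraries labelled Bcl3-/- (0.70), a difference of -2.39 ± 0.24 (adjusted P = 0.00993), and for Timp3, with -0.09 in those libraries, the difference was 1.33 ± 0.24 (adjusted P = 0.0353).

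Proliferation genes fell without exception in the mitosis list. All 28 mitosis genes fell (median -0.95, range -1.22 to -0.61), as did 26 of 31 DNA replication genes (median -0.65), and none of either rose. Cdc20, the activator of the anaphase-promoting complex, went from 172, 174 and 175 CPM to 81.2, 80.9 and 72.5 CPM (log2 fold change -1.15 ± 0.06 (SE), adjusted P = 7.32e-07). Aurka, a spindle pole kinase, went from 107, 103 and 104 CPM to 50.2, 46.5 and 45 CPM (-1.15 ± 0.06), and the proliferation marker Mki67 went from 193, 166 and 187 CPM to 119, 93.6 and 94.8 CPM (-0.83 ± 0.11). The day 1 and day 3 libraries did not overlap for any of the 28, against 48.8% of all genes and 6070 of the 6284 called genes. In the replication list Rrm2, a subunit of ribonucleotide reductase, fell furthest, from 469.9, 422 and 376 CPM to 177, 158 and 144 CPM (-1.40 ± 0.09), followed by the origin factor Orc1 (-1.25). The helicase subunit Mcm5 (-0.86) and the S-phase factor E2f1 (-0.44) also fell. The libraries labelled Bcl3-/- had 28 of 28 and 28 of 31 falls in these lists.

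The promoters of both lists were searched for short motifs. RefSeq promoters on GRCm38.p6, 250 bases before to 50 after each start, were matched by symbol for 21 of the 28 mitosis and 26 of the 31 replication genes, and both strands were read. The cell cycle homology region (TTTGAA or TTCGAA), through which mitotic genes are repressed in resting cells, was in 81.8% of 22 mitosis promoters against 19.2% of all 32851 promoters, 14.3% of those of genes tested and 20% of 30 replication promoters. The CCAAT box was in 95.5% of the mitosis promoters, 56.7% of the replication promoters and 37.4% of all. The E2F site (TCCCGCC) was in 23.3% of the replication promoters, near the 19.4% of promoters of genes tested, and in 31.8% of the mitosis promoters. A match is a string of letters and was not tested as a binding site. The promoter of Ccnb2, at chr9:70421555-70421804 on the minus strand, is shown for the 250 bases before the start. Capitals mark the only match to TTTGAA or TTCGAA in these bases, 167 to 162 bases before the start. The 50 bases after the start are not shown, and whether this match is a working element was not tested.
Ccnb2: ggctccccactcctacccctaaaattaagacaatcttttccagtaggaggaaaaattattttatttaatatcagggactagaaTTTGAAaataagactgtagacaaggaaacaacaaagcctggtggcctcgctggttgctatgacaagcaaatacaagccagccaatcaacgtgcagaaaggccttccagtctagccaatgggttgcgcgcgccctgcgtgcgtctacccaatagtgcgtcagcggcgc
Cyclin B2 (Ccnb2, gene at chr9:70407692-70421547) went from 94.8, 97.4 and 103 CPM to 57, 56.4 and 54.8 CPM (-0.81 ± 0.06).

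Cell cycle inhibitors did not move as a group. Of 15 D cyclins, their kinases and inhibitors, 2 rose and 4 fell (median -0.04), 40.0% called in all, near the 38.5% of all genes. Cdkn1c, encoding the growth inhibitor p57, went from 6.92, 9.02 and 15.8 CPM to 94.4, 217 and 217 CPM (log2 fold change 4.04 ± 0.36 (SE), adjusted P = 1.81e-05), and Cdkn2b (0.54), encoding p15, rose. Cdkn1a, encoding p21, fell from 409.7, 417 and 419 CPM to 297, 284 and 219 CPM (-0.64 ± 0.11). It is also a p53 target, a list in which 11 of 18 fell and 4 rose (median -0.48). Mdm2, the p53 ubiquitin ligase, fell from 232, 180.1 and 172 CPM to 117, 92.6 and 95.1 CPM (-0.94 ± 0.11) and Gdf15 fell from 4.03, 4.74 and 4.61 CPM to 1.34, 1.5 and 1.98 CPM (-1.46 ± 0.26), while Sesn1 (0.69) and Fas (0.52) rose.

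Interferon-stimulated genes had the largest median change of the gene lists. Of 42, 41 rose, each by over 1 log2, and none fell (median 2.94, against 0.00135 over all genes). Ifit1, an antiviral RNA-binding protein, went from 4.34, 11.7 and 44.2 CPM to 387, 409 and 279 CPM (log2 fold change 4.14 ± 0.72 (SE), adjusted P = 0.00188). Isg15, a ubiquitin-like modifier, went from 2.85, 8.38 and 25.2 CPM to 172, 243 and 152 CPM (3.93 ± 0.70), and Mx2, a dynamin-like GTPase, from 0.407, 0.41 and 1.09 CPM to 10.7, 10.4 and 7.95 CPM (3.88 ± 0.34). The transcription factors that carry the interferon signal rose as well: Stat2 from 28.5, 35.6 and 60.8 CPM to 246, 208 and 199.6 CPM (2.38 ± 0.24), Irf7 (3.67) and Irf9 (2.05). Irf7 and Irf9 were not called with culture as a block in a fit of the 6 WT libraries alone (adjusted P = 0.0636 and 0.0505). Ifi27 was the member not called (-0.06 ± 0.20, adjusted P = 0.856). Several of these genes, such as the Ifit3 and Oas1 pairs, are close copies, and reads that did not align uniquely may be missing from their counts.

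Day 1 levels of this list differed between cultures. Mean log2 CPM over the 42 genes was 2.20, 2.69 and 3.82 at day 1 and 6.07, 6.03 and 5.81 at day 3, so the cultures lay farther apart at day 1 than at day 3. For Oasl2, 1.54, 6.26 and 23.4 CPM at day 1 and 203, 175 and 156 CPM at day 3, the change per culture was 6.99, 4.79 and 2.74. In that block fit 27 of the 42 were called, and Ifit1, Isg15 and Oasl2 were among those no longer called (adjusted P = 0.0896, 0.0757 and 0.088). In the libraries labelled Bcl3-/- 6 of the 42 rose (median 0.61), and 17 had a smaller change than WT by the interaction test, against 0.766% of all genes. That count was 7 with the block, 39 by DESeq2 and between 0 and 41 when any 1 library was left out, 41 of them without the day 1 W4 library. Their day 1 means were 4.70, 4.76 and 5.40, each above those of WT, and day 3 means were 5.77, 5.56 and 5.47.

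The interferon-stimulated response element (GAAA, any 2 bases, GAAA) was in 54.5% of 33 promoters of 29 matched genes of the list, against 3.44% of all promoters and 9.15% of those of genes that rose by over 1 log2. The promoter of Rsad2, viperin, at chr12:26456453-26456702 on the minus strand of GRCm38.p6, is shown with the element, read on the opposite strand, in capitals.
Rsad2: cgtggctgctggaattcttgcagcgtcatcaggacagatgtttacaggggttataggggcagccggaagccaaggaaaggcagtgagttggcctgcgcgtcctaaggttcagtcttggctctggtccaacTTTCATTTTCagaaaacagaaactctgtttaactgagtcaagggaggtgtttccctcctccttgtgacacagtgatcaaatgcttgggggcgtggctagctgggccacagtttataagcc
Rsad2 (gene at chr12:26442746-26456452), an enzyme that makes a chain-terminating antiviral nucleotide, went from 1.76, 1.82 and 1.86 CPM to 16.3, 16.3 and 10.4 CPM (log2 fold change 2.97 ± 0.27 (SE), adjusted P = 1.19e-05).

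Antigen presentation and complement genes rose in the same comparison. All 14 MHC class I and immunoproteasome genes rose (median 1.36). B2m, the light chain of class I molecules, went from 298, 351 and 429 CPM to 809, 1156 and 1269 CPM (1.58 ± 0.22), H2-K1, a heavy chain, from 137, 104 and 131 CPM to 289.7, 307 and 439 CPM (1.48 ± 0.16), and the peptide-cleaving subunit Psmb8 (1.63) and the class I transactivator Nlrc5 (1.38) rose. Of 12 complement genes 10 rose (median 1.79), led by C3, from 1.72, 1.16 and 2.5 CPM to 9.29, 11 and 18.1 CPM (2.85 ± 0.34), with C4b (2.58), C2 (2.39) and the regulator Serping1 (2.08). Macrophage genes rose in the same libraries: 16 of 22 rose and none fell (median 1.20), and their summed level was 404 to 635 CPM at day 1 and 935 to 1372 CPM at day 3. Mrc1, the mannose receptor, went from 8.46, 6.08 and 12 CPM to 32.6, 31.6 and 55.5 CPM (2.18 ± 0.30), C1qa from 6.6, 7.81 and 12.7 CPM to 29.1, 34.1 and 43.8 CPM (1.97 ± 0.30) and Lyz2 from 278, 228 and 375 CPM to 499.9, 555 and 800.1 CPM (1.08 ± 0.26). All 22 had reads in WT at both days, and their part in the interferon, presentation and complement rises was not tested.

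**Figure D4:**
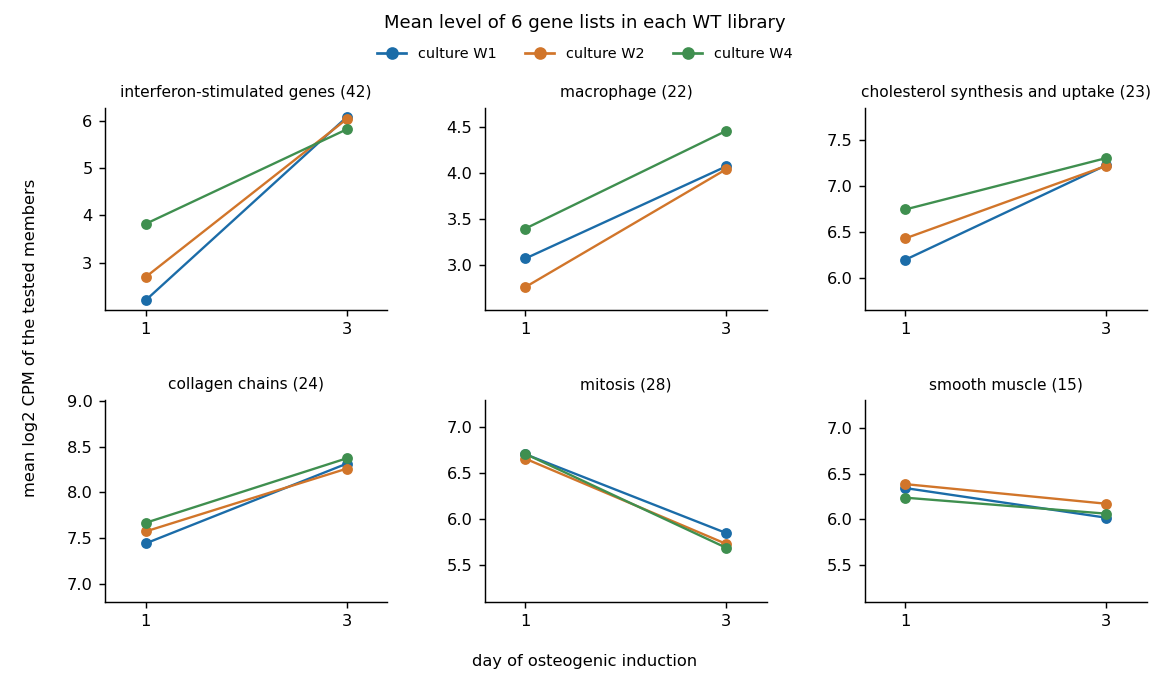
Mean log2 CPM of the tested members of 6 gene lists at day 1 and day 3, a line per WT culture and a separate y axis per panel. Interferon-stimulated genes start between 2.20 and 3.82 and end between 5.81 and 6.07, macrophage, cholesterol and collagen genes go up and mitosis and smooth muscle genes go down in all 3 cultures.

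Cholesterol synthesis and uptake genes rose in 22 of 23 with no fall (median 0.77). The group holds the enzymes of the mevalonate and sterol pathway, uptake genes and their regulators. Insig1, which retains the sterol sensor in the endoplasmic reticulum, went from 101, 124 and 157 CPM to 349, 323 and 386 CPM (log2 fold change 1.46 ± 0.14 (SE), adjusted P = 1.92e-05). Sqle, squalene epoxidase, went from 154, 184 and 230.3 CPM to 336, 307 and 350.1 CPM (0.80 ± 0.12). Day 1 means of the list were 6.20, 6.43 and 6.75 log2 CPM, lowest in W1 and highest in W4, and day 3 means 7.23, 7.22 and 7.31. In the libraries labelled Bcl3-/- 1 rose and 3 fell (median -0.12). Their change was smaller than that of WT for 12 of the 23 genes, and for between 0 and 21 when any 1 library was left out, 21 of them without the day 1 W4 library.

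The sterol regulatory element (TCAC, any base, CCAC) was in 1 of 19 promoters (5.26%) of 16 matched genes and in 1.24% of all promoters. With 1 match this share is no measure of an excess, and collagen chains had 1 of 21 (4.76%). The CCAAT box was in 84.2% of the 19. Hmgcs1 carries the element and is shown for the 250 bases before its start, at chr13:119690101-119690350 on the plus strand, with the element in capitals.
Hmgcs1: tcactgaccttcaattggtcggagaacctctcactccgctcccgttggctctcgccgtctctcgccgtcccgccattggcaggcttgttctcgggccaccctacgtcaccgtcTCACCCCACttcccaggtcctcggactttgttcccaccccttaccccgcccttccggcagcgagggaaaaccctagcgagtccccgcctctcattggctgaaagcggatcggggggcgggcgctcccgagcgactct
Hmgcs1 (gene at chr13:119690379-119708260), the synthase that commits acetyl units to the mevalonate pathway, went from 306, 364 and 460.3 CPM to 770.1, 749.7 and 851 CPM (log2 fold change 1.07 ± 0.12 (SE), adjusted P = 4.46e-05). In the libraries labelled Bcl3-/- the change was 0.03, a difference of -1.04 ± 0.17 (adjusted P = 0.0263).

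Lysosomal genes, many of which macrophages also express, rose in 21 of 22 with no fall (median 0.59). The macrophage markers given above rose in the same libraries, and their part in the lysosomal rises was not tested. Grn, progranulin, went from 318, 297 and 394 CPM to 681, 651 and 751 CPM (1.04 ± 0.10), and Ctsd, cathepsin D, from 1029.7, 919.7 and 1098 CPM to 1765, 1821 and 1909 CPM (0.85 ± 0.08). Endoplasmic reticulum folding genes went down in 11 of 21 and up in 1 (0 to 1 with 1 library left out), with a median of -0.22. Hspa5, the chaperone BiP, fell from 1817, 1826 and 1705 CPM to 1336, 1229 and 1194 CPM (-0.51 ± 0.07), its partner Hyou1 fell (-0.91), and the coat protein Sec24d rose (0.25). ATF4 target genes fell in 7 of 22 (4 to 9 with 1 library left out) and rose in 2 (0 to 2). The falls included Asns (-0.44) and Phgdh (-0.47), genes of amino acid supply, and the rises were Nupr1 (0.77) and Fgf21 (1.74). The share of ATF4 targets called, 40.9%, was near the 38.5% of all genes.

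NRF2 targets of the antioxidant response and metallothioneins had 8 falls and 3 rises of 18 (median -0.20). Nqo1, a quinone reductase, fell from 121, 116 and 97.9 CPM to 44.4, 44.7 and 30.7 CPM (-1.49 ± 0.13), with Txnrd1 (-0.83), Gclc (-0.78) and Gclm (-0.79), while the metallothioneins Mt1 (1.15) and Mt2 (1.46) and Gstm1 (0.96) rose. Of 25 glycolysis and hypoxia genes 8 rose and 6 fell (median 0.10). Pdk1, which diverts pyruvate from mitochondria, went from 13.1, 11.6 and 16 CPM to 31.5, 49.6 and 49 CPM (1.68 ± 0.17), and Car9 (1.43) and Bnip3 (1.04) rose, while Hk2 (-0.82), Ldha (-0.30) and Vegfa (-0.67) fell. Of 13 mitochondrially encoded mRNAs 1 rose, mt-Co1 (0.37 ± 0.09), and none fell.

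Wnt pathway genes changed at every tier. Of 10 tested ligands 1 rose and 5 fell (3 to 5 with 1 library left out). Wnt2 went from 18.9, 18.4 and 8.87 CPM to 3.24, 2.39 and 2.51 CPM (log2 fold change -2.50 ± 0.25 (SE), adjusted P = 1.88e-05), Wnt11 (-1.41), Wnt4 (-1.77) and Wnt10b (-1.39) fell, and the noncanonical ligand Wnt5a fell from 52.5, 43.5 and 41.9 CPM to 35.5, 29.1 and 30.1 CPM (-0.54 ± 0.13). Wnt16, a ligand tied to cortical bone mass, rose from 0.859, 0.933 and 1.94 CPM to 4.26, 4.76 and 8.25 CPM (2.19 ± 0.35). Of 21 receptors, co-receptors and R-spondins 7 rose and 5 fell (2 to 7 with 1 library left out). The R-spondin receptors moved in opposite directions: Lgr5 (chr10:115450311-115587780) went from 2.85, 3.05 and 11.8 CPM to 50.7, 58.6 and 98.1 CPM (3.52 ± 0.49) and Lgr6 (chr1:134983301-135105276) went from 29, 25.9 and 9.64 CPM to 1.97, 1.38 and 1.3 CPM (-3.80 ± 0.42). Their ligands Rspo2 (1.53) and Rspo3 (1.89) and the receptor Fzd9 (1.40) rose.

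Secreted Wnt antagonists rose in 4 of 9 and fell in 1. Sfrp2 went from 41.2, 44.9 and 215 CPM to 427, 679 and 1394 CPM (3.05 ± 0.68), with W4 highest at both days, and Sfrp1 from 101, 109.6 and 203 CPM to 633, 567 and 752 CPM (2.24 ± 0.29). Sfrp4 (0.99) and Dkk3 (0.53) rose too. Notum, a lipase that inactivates Wnt and is also induced by it, fell from 7.1, 5.26 and 3.97 CPM to 1.09, 0.522 and 0.376 CPM (-3.06 ± 0.35). Of 12 canonical Wnt targets 7 fell and 2 rose (median -0.61). The DNA-binding partners of beta-catenin, Tcf7 from 15.6, 14.1 and 10.8 CPM to 4.57, 3.01 and 3.51 CPM (-1.87 ± 0.24) and Lef1 (-1.65), and the feedback gene Axin2 from 6.42, 6.9 and 6.71 CPM to 5.74, 4.51 and 3.46 CPM (-0.56 ± 0.18) fell, and Nkd1 (1.01) and the gap junction gene Gja1 (0.43) rose. The list shares Lgr6 with the receptors and Tnfrsf11b with the signals to osteoclasts.

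Of 16 BMP ligands and antagonists 8 rose and 4 fell (2 to 5 with 1 library left out), with a median of 0.28. The ligands Bmp2 (an inducer of bone), from 1.94, 2.25 and 3.44 CPM to 6.9, 7.86 and 10.9 CPM (1.74 ± 0.25), Bmp4, from 12.7, 13.1 and 24 CPM to 31.1, 40.2 and 43.4 CPM (1.20 ± 0.21), Bmp6 (0.81) and Gdf10 (2.23) rose. Bmp7 was not called (-1.71 ± 0.78, adjusted P = 0.11, and 0.00287 with culture as a block). Antagonists were split: Chrdl1 from 5.79, 4.6 and 12.1 CPM to 63, 79.9 and 117 CPM (3.52 ± 0.35) and Chrd (1.54) rose, while Nog (chr11:89300638-89302332), noggin, went from 11.3, 10.2 and 5.91 CPM to 1.13, 0.982 and 1.71 CPM (-2.82 ± 0.28) and Grem1 (-1.08) fell. In the libraries labelled Bcl3-/- noggin was not called (-0.31, adjusted P = 0.425), and the difference was 2.51 ± 0.40 (adjusted P = 0.0224).

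Of 11 BMP target genes 8 fell and none rose (median -1.11). The inhibitory SMADs Smad6, from 85.1, 70.4 and 49.3 CPM to 29.3, 26.6 and 30.3 CPM (log2 fold change -1.25 ± 0.15 (SE), adjusted P = 6.78e-05), and Smad7 (-1.21) fell, as did Id1, from 44.3, 45.6 and 30.3 CPM to 21, 22.1 and 26.8 CPM (-0.78 ± 0.17), Hey1 (-2.05) and Atoh8 (-1.11). With culture as a block in the 6 WT libraries Id1 and Atoh8 were not called (adjusted P = 0.066 and 0.0821). In the libraries labelled Bcl3-/- 4 of these genes rose and 3 fell. The change differed from that of WT for Id1 (1.29 ± 0.24, adjusted P = 0.0361) and Atoh8 (1.34 ± 0.28, adjusted P = 0.0496), calls kept in 4 and 2 of the 12 fits that left out 1 library. The count of such targets, 2 here, was 1 with the block in 12 libraries, 4 by DESeq2 and between 0 and 7 with 1 library left out, 7 of them without the day 1 W4 library. Day 1 values of Smad6 and Id1 were lowest in W4.

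TGF-beta family genes had 4 rises (2 to 4 with 1 library left out) and 7 falls of 16 (median -0.21). Inhba, the activin A chain, went from 283, 248 and 145 CPM to 62.6, 60.2 and 44.6 CPM (log2 fold change -2.01 ± 0.21 (SE), adjusted P = 4.45e-05), and Inhbb, the activin B chain, from 213, 212 and 196 CPM to 74.8, 50.4 and 33.9 CPM (-1.97 ± 0.23). The receptors Tgfbr2, from 303, 289 and 399 CPM to 599, 533 and 581 CPM (0.79 ± 0.10), and Acvr2a (0.84) rose. In the insulin-like growth factor axis 3 of 15 rose and 5 fell (3 to 6 with 1 library left out). Igf1 went from 70.1, 54.8 and 108 CPM to 262, 329.5 and 412 CPM (2.11 ± 0.23), and its binding proteins Igfbp3, from 10.1, 10.8 and 27.8 CPM to 95.1, 167 and 194 CPM (3.21 ± 0.41), and Igfbp4 (1.43) rose. Stc1 (-1.81) and the receptor Igf1r (-0.53) fell.

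Of 18 FGF pathway genes 5 rose (1 to 7 with 1 library left out) and 4 fell, with Fgf2, from 56.9, 46.5 and 36.2 CPM to 24.7, 24 and 25.2 CPM (-0.91 ± 0.14), and the receptor Fgfr3 (-1.10) down and Fgfr1 (0.37) up, although Fgfr1 was not called with culture as a block in the 6 WT libraries (adjusted P = 0.0971). Hedgehog feedback genes fell, Ptch1 from 14, 13.4 and 9.72 CPM to 3.59, 4.76 and 3.29 CPM (-1.67 ± 0.26), Hhip (-2.20) and, under 1 CPM, Gli1 (-1.82), in a list of 10 with 2 rises (1 to 2 with 1 library left out) and 3 falls. Of 12 Notch pathway genes 4 fell, among them Hes1, from 40.1, 45 and 32.7 CPM to 23, 24.3 and 16.2 CPM (-0.89 ± 0.15), and Notch1 (-0.57), and 1 rose (0 to 1 with 1 library left out), Dll1 (1.49), under 1 CPM. The share of Notch genes called, 41.7%, was near the 38.5% of all genes.

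**Figure D5:**
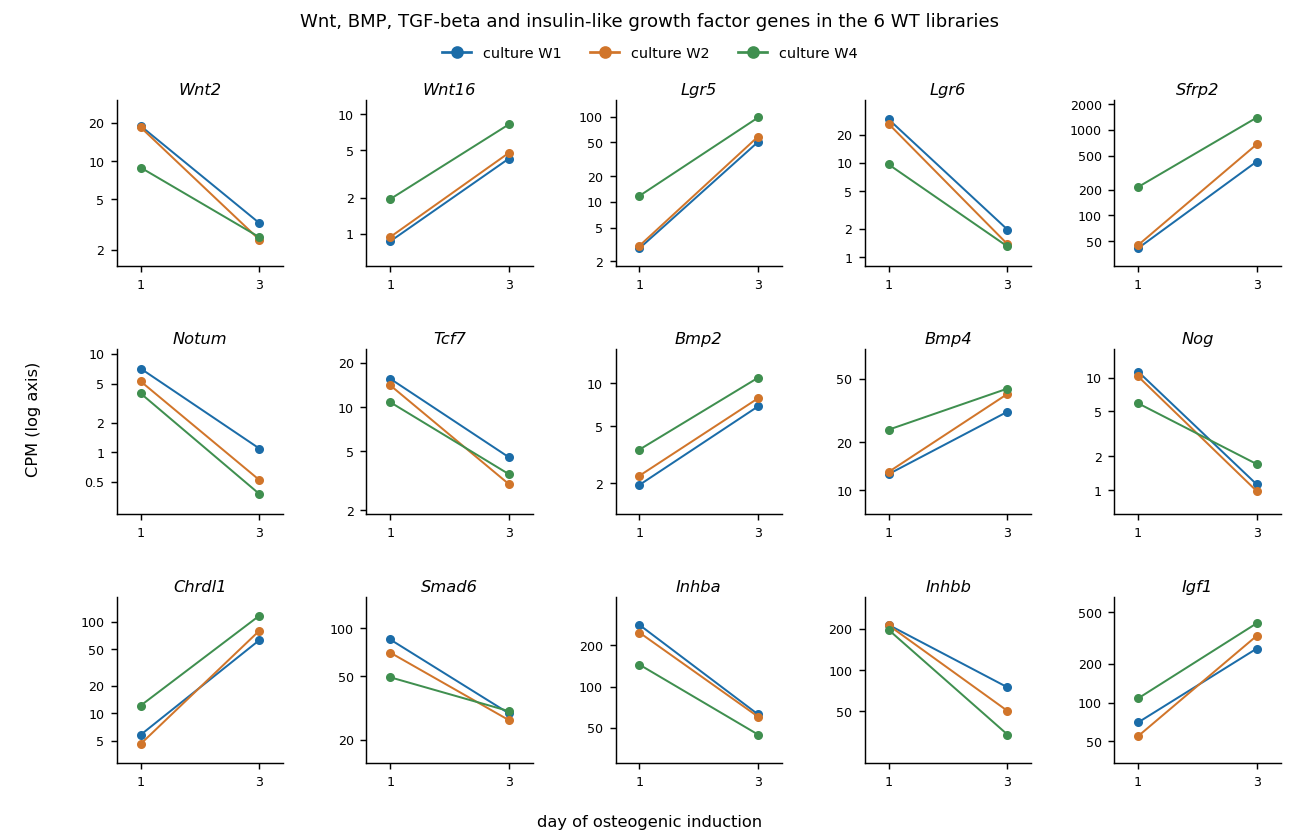
CPM (log axis) of 15 Wnt, BMP, TGF-beta and insulin-like growth factor genes at day 1 and day 3, a line per WT culture. All 45 lines keep the direction of their gene's call, with Wnt16, Lgr5, Sfrp2, Bmp2, Bmp4, Chrdl1 and Igf1 going up and Wnt2, Lgr6, Notum, Tcf7, Nog, Smad6, Inhba and Inhbb going down. The 15 were picked among called genes, of which 6259 of 6284 moved the same way in all 3 cultures.

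Of 24 immediate early genes 13 fell and none rose (median -0.60). Fosl1 went from 40.7, 42 and 29.6 CPM to 12.3, 10.1 and 7.5 CPM (log2 fold change -1.91 ± 0.19 (SE), adjusted P = 2.01e-05), Egr1 from 243, 249.8 and 203 CPM to 124, 119 and 102 CPM (-1.01 ± 0.11) and Fos from 46.2, 42.9 and 43.1 CPM to 31.9, 26.1 and 22.8 CPM (-0.71 ± 0.14). Of 13 targets of YAP and TEAD, effectors of cell spreading and tension, 9 fell and 2 rose (median -0.44). Ccn1 went from 1434, 1337 and 1097 CPM to 666, 558 and 503 CPM (-1.16 ± 0.12), Ccn2 from 1379, 998 and 653 CPM to 569, 337 and 334 CPM (-1.29 ± 0.26) and Ankrd1 from 48, 29.9 and 24.8 CPM to 22.4, 15.2 and 13.2 CPM (-1.01 ± 0.24), while Nt5e (0.65) and F3 (0.49) rose. Smooth muscle genes fell in 6 of 15, rose in 1 and were not called in 8 (median -0.15). Calponin (Cnn1) went from 269, 249 and 206 CPM to 131, 119 and 94.3 CPM (-1.07 ± 0.12), Tagln (-0.78) and the coactivator Myocd (-2.43) fell, and Mylk rose (2.21). Smooth muscle actin (Acta2) was at 2457, 2729 and 2675 CPM at day 1 and 2194, 2618 and 2381 CPM at day 3 (-0.13 ± 0.08, adjusted P = 0.234).

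Of 18 NF-kB members and inhibitors 2 fell and none rose (11.1% against the 38.5% of all genes), and the falls ranged from 0 to 5 with 1 library left out. The 2 were Nfkbiz (-0.54) and Bcl3, both atypical IkB proteins. Bcl3 went from 18, 21.8 and 17.8 CPM to 14.8, 15.9 and 12.8 CPM (log2 fold change -0.41 ± 0.12 (SE), adjusted P = 0.0153). Of 25 cytokine and chemokine genes 6 rose and 6 fell. Ptgs2, cyclooxygenase 2, went from 557, 370.0 and 223 CPM to 85.4, 42.9 and 33.5 CPM (-2.83 ± 0.38), and Cxcl1 (-2.00), Cxcl5 (-1.25) and Il11 (-1.67) fell. Cxcl12, a retention signal for marrow cells, rose from 73.5, 80.1 and 92.2 CPM to 281, 341 and 300.0 CPM (1.91 ± 0.15), as did Il33 (1.92) and the interferon-inducible Cxcl9 (1.54) and Cxcl10 (2.06, adjusted P = 0.0669 with culture as a block in the 6 WT libraries).

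Of 10 signals from osteoblasts to osteoclasts 1 rose and 3 fell, 40.0% called in all, near the 38.5% of all genes. Tnfrsf11b, osteoprotegerin, the decoy receptor, went from 311, 199 and 166 CPM to 129.8, 84.3 and 55.4 CPM (log2 fold change -1.33 ± 0.29 (SE), adjusted P = 0.00392), with W1 highest at both days. Its ligand Tnfsf11, RANKL, went from 11.9, 11.6 and 8.71 CPM to 6.65, 8.13 and 5.87 CPM (-0.64 ± 0.22). The macrophage growth factor Csf1 went from 1198, 992 and 934 CPM to 726, 563 and 604 CPM (-0.72 ± 0.12), and Il34, which shares its receptor, rose from 11.4, 8.86 and 15.7 CPM to 20.7, 16.5 and 24.9 CPM (0.79 ± 0.20). Osteoclast genes themselves rose in 5 of 10 and fell in 1. Ctsk, cathepsin K, went from 126, 127 and 159.8 CPM to 244, 317 and 334 CPM (1.11 ± 0.12), Acp5, tartrate-resistant acid phosphatase, from 4.48, 4.85 and 5.65 CPM to 12.5, 18.8 and 19.3 CPM (1.75 ± 0.18) and Atp6v0d2 rose (2.04), while Nfatc1, the master factor of the lineage, fell from 105, 89.2 and 67.4 CPM to 57.1, 53.2 and 50.4 CPM (-0.70 ± 0.13).

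Markers of further cell types give the cellular background. Of the tendon and fibroblast genes, Tnmd, tenomodulin, went from 109, 124 and 180.4 CPM to 314, 413 and 541 CPM (1.62 ± 0.21), Cd34 from 18.9, 17.7 and 24.1 CPM to 55.9, 57.3 and 71.8 CPM (1.61 ± 0.13) and Dpt, dermatopontin, from 2.13, 1.07 and 3.89 CPM to 12.4, 14.3 and 24 CPM (2.85 ± 0.38). Clec3b, counted among the 10 rises of this list, had no read at day 1 and 0.0352, 0.0614 and 0.125 CPM at day 3. Its call thus rested on very few reads in WT. Cartilage genes rose in 3 and fell in 1 of 12 (0 to 2 falls with 1 library left out), 33.3% called against the 38.5% of all genes. Col2a1, cartilage collagen, was at 2309.9, 1749 and 638 CPM at day 1 and 1323, 614 and 208 CPM at day 3, lowest in W4 at both days and not called (-1.13 ± 0.62, adjusted P = 0.187, and 0.000477 with culture as a block). Acan, aggrecan, fell from 37.2, 43.5 and 9.75 CPM to 14.6, 8.53 and 2.21 CPM (-1.85 ± 0.64), with groups that overlapped. Pericyte genes had 3 rises, among them Abcc9 (2.38) and Kcnj8 (3.23), and 2 falls (1 to 2 with 1 library left out) of 8. Whatever the call, 4 of the 8 pericyte genes were higher at day 3 and 4 lower (median 0.09, range -1.05 to 4.60).

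Adipocyte and endothelial genes had 2 rises and no fall of 7 each (1 to 2 and 1 to 2 rises with 1 library left out), with Lpl from 19.4, 16.8 and 29 CPM to 42.5, 43.4 and 85.2 CPM (1.39 ± 0.27) and Tek (1.42). Whatever the call, 5 adipocyte genes were higher at day 3 and 2 lower (median 0.35). Of the endothelial genes 2 were higher and 5 lower (median -0.19). Neural and glial genes had 2 rises (1 to 2 with 1 library left out) and 3 falls of 9. Lymphocyte genes fell in 5 of 8 (2 to 6 with 1 library left out), from summed levels of 8.87 to 10.9 CPM to about 5 CPM (4.91 to 4.96), skeletal muscle genes were called in 0 of 10 at summed levels of 10.4 to 16.6 CPM, 1 of 10 neutrophil genes passed the filter and was not called, and none of the 7 red cell genes had a read.

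Among genes above a mean of 1 log2 CPM whose groups did not overlap, and leaving aside clone names, the largest rises were Ndufa4l2 (4.60 ± 0.82, adjusted P = 0.0596 with culture as a block in the 6 WT libraries), a mitochondrial protein of pericytes, and Matn4, followed by interferon genes, Cdkn1c and Fmo1 (3.89 ± 0.48), a flavin-containing monooxygenase. Matn4, matrilin 4 (chr2:164389393-164405160), went from 3.03, 3.21 and 7.96 CPM to 57.5, 125 and 148 CPM (log2 fold change 4.51 ± 0.43 (SE), adjusted P = 3.02e-05). Of genes that the study names, Tmem178, a membrane protein of the endoplasmic reticulum, went from 0.136, 0.25 and 0.559 CPM to 5, 7.4 and 7.93 CPM (4.33 ± 0.33), with a smaller change in the libraries labelled Bcl3-/- (difference -2.27 ± 0.42, adjusted P = 0.0353), and the metalloreductase Steap4 from 0.859, 0.979 and 1.78 CPM to 6.4, 9.94 and 14.5 CPM (3.06 ± 0.33). The largest falls were Dynap, a membrane protein, from 23.7, 16.8 and 6.12 CPM to 0.598, 0.246 and 0.1 CPM (log2 fold change -5.70 ± 0.66 (SE), adjusted P = 8e-05), and Serpinb2, plasminogen activator inhibitor 2, from 30.9, 28.9 and 12.5 CPM to 1.06, 1.04 and 0.125 CPM (-5.08 ± 0.56). Lgr6, given above, had the third largest fall of these. Others of the 15 largest were Sema4f (-2.87), the plakophilin Pkp1 (-2.87), Ptgs2, Nog, cochlin (Coch, -2.82), Colec10 (-2.70), Pcp4l1 (-2.67), Wnt2, Car8 (-2.50) and Pcolce2. For Dynap, Serpinb2 and Sema4f the W4 library was lowest at both days.

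By reads gained, the leading genes were Col1a1, Col1a2, Col3a1, Lars2, Sparc, Thbs2, Lum and Postn. Lars2, a mitochondrial leucyl-tRNA synthetase, rose from 27071, 29439 and 27445 CPM to 33198, 36056 and 37855 CPM (0.35 ± 0.12, adjusted P = 0.0312), a call lost in 8 of the 12 fits that left out 1 library. Its deposited FPKM values were 7657.8, 0 and 0 at day 1 and 8814.22, 0 and 0 at day 3. In the limma fit on log2(FPKM + 1) Lars2 was not called (0.068, adjusted P = 0.993). With values of 0 in W2 and W4 at both days, that fit could not show a rise or its absence. The rise is uncertain because its call was lost in 8 of the 12 fits named above. In reads lost, the leading genes after Lox were the integrin chain Itgb1, from 3373, 2823 and 2523 CPM to 2118, 1804 and 1850.4 CPM (-0.59 ± 0.11), Timp3, Ccn1, Ccn2, the membrane linker Msn (-0.75), Hspa5 and the lamin gene Lmna (-0.55). Among genes above a mean of 1 log2 CPM, the changes of the 3 cultures lay farthest apart for Scin, Ibsp and Oasl2. Scin, a gelsolin-like actin-severing protein, was at 6.24, 3.55 and 0.559 CPM at day 1 and 2.08, 1.44 and 6.25 CPM at day 3, falling in W1 and W2 and rising in W4 (-1.56, -1.26 and 3.34), and was not called (-0.03 ± 0.97, adjusted P = 0.988).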

How the data were processed

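RNA was sequenced from 12 osteoblast libraries, of which the 6 WT libraries are described here. The authors trimmed 75-bp paired-end reads with Trim Galore, aligned them to GRCm38 (mm10) with TopHat2 and counted reads per gene with HTSeq, and they deposited these counts and Cufflinks FPKM values. Tool versions, the strand setting of the count and the annotation release were not given in the sources used here. Groups were taken from the labels. Replicate pools of pups within a group are separate cultures, and P values measure the spread between them. The main fit did not use the pairing of days by culture, so differences between cultures that last over both days are part of that spread.

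Gene symbols came from GENCODE M21 annotation (49326 of 49585 genes matched). Counts were filtered with filterByExpr, TMM-normalized and fitted in edgeR 4.0.16 (R 4.3.3) with 4 groups of 3 libraries and no block, and the change over time and its interaction with genotype were tested by the quasi-likelihood test with Benjamini-Hochberg adjustment, tested first on simulated data. The biological coefficient of variation was 13.5%. SE is the log2 fold change divided by the square root of F. Log2 CPM used a prior count of 2. The 3 culture codes pair day 1 with day 3 libraries: deviations from the group means correlated by r = 0.327, 0.243 and 0.251 for W1, W2 and W4, and by -0.240 to 0.0158 for unmatched codes. Alternatives were DESeq2 1.42.0, other normalizations, other filters, culture as a block, only WT libraries, limma 3.58.1 on log2(FPKM + 1) or log2(FPKM + 0.1), leaving out each library in turn, and thinning to the smallest library (20009732 reads).

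Named genes were the 15 largest rises and 15 largest falls above 1 log2 CPM with groups apart, up to 5 called members of each list and up to 3 called against its majority, genes the study names, the 8 largest gains and losses in reads, the 5 largest interactions each way, and 3 genes whose cultures differed most. Every member of the osteoblast transcription factor, bone matrix and osteoclast signal lists was counted. Further members were named for their known roles after their values were seen, and some genes the rule selects are not reported here. Members and lists were chosen with earlier results of these data known. Promoter sequences are RefSeq's on GRCm38.p6. Limits and intervals cover the spread between libraries only.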

Additional observations from a re-analysis of the deposited data

Results flagged for a closer look

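The 10 genes below were picked for the largest tested differences between the change over time in the libraries labelled Bcl3-/- and the change in WT, 5 in each direction, among genes above a mean of 1 log2 CPM. Adjusted P values are from edgeR's quasi-likelihood interaction test, and each difference is that of the libraries labelled Bcl3-/- minus WT on the log2 scale. Of 12 fits that each left out 1 library, the number that kept the call is given after each value.

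Mx2, an interferon-induced GTPase, differed by -3.27 ± 0.44 (adjusted P = 0.0182, 8 of 12 fits), with a WT change of 3.88. Dhx58, a viral RNA sensor, differed by -2.82 ± 0.51 (adjusted P = 0.0361, 2 of 12). Oas1b, an oligoadenylate synthetase gene, differed by -2.80 ± 0.49 (adjusted P = 0.0334, 2 of 12). Phf11d, a PHD finger gene, differed by -2.71 ± 0.55 (adjusted P = 0.0496, 1 of 12). These 4 rose in WT by 3.14 to 3.88 log2. Mmp3, the protease given above, differed by -2.48 ± 0.49 (adjusted P = 0.0445, 2 of 12).

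In the other direction, Nptx1, neuronal pentraxin 1, was not called in WT (-0.36 ± 0.25, adjusted P = 0.283) and differed by 2.55 ± 0.37 (adjusted P = 0.0182, 9 of 12). Noggin (Nog) differed by 2.51 ± 0.40 (adjusted P = 0.0224, 4 of 12). Slc5a3, an inositol transporter, fell in WT (-0.88) and differed by 1.46 ± 0.22 (adjusted P = 0.0213, 7 of 12). Prokr1, a prokineticin receptor, was not called in WT (-0.19 ± 0.21, adjusted P = 0.536) and differed by 1.44 ± 0.30 (adjusted P = 0.0463, 3 of 12). Draxin, a secreted guidance protein, fell in WT (-2.23) and differed by 1.43 ± 0.25 (adjusted P = 0.0286, 2 of 12).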

How the results depend on the processing

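Results were recomputed under 24 alternatives. The WT calls numbered 6284 and stayed within 1.5 times that under all of them (4648 to 6780 with 1 library left out), and 6199 of the 6284 were also called by DESeq2. Genes called with changes of over 1 log2 numbered 1571, and 593 on log2(FPKM + 1) and 644 with FPKM of at least 1 in 3 libraries. The genotype interaction was the least stable result, with 462 genes by DESeq2, 232 without a count filter and 3 to 488 with 1 library left out, against 150. Rises among interferon-stimulated genes went from 41 to 27 under culture as a block in the 6 WT libraries. With culture as a block, 6639 genes were called in the 12 libraries and 7722 in the 6 WT libraries, and among genes named here the 12-library block changed the call of Phex, Bmp7 and Col2a1, while the block in the 6 WT libraries lost those of Atoh8, Cxcl10, Fgfr1, Id1, Ifit1, Ifit3, Irf7, Irf9, Isg15, Ndufa4l2 and Oasl2 (adjusted P = 0.0505 to 0.0971). No alternative moved the median of all genes by over 0.1 log2. For gene lists, 1749 of 1920 recomputed counts stayed within 1.5 times.

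Of the 235 called genes named in the text, 194 kept their call under every alternative. With 1 library left out, the calls of Acan, Lars2, Atf4 and Grem1 were lost in 7 or 8 of 12 fits, those of Tnfsf11, Nfkbiz, Dmp1, Dlx3, Fgf21 and Bmp6 in 4, those of Nupr1, Wnt10b, Dll1, Axin2, Col5a1, Gli1 and Fgfr1 in 3, and those of Wnt4, Sec24d, Bcl3, Clec3b, E2f1, Foxc1, Mt2 and Vegfa in 1 or 2. The sign turned for 1 called gene, Col1a1, at -3.98 on log2(FPKM + 1) and -5.09 on log2(FPKM + 0.1), scales on which it is listed at 0. Among uncalled genes, Ibsp was at 0.47 and 0.35 under the 2 block fits, 0.67 on log2(FPKM + 0.1), 0.19 on both log2(FPKM + 1) fits and -1.15 to 2.28 with 1 library left out. Spp1 was at -0.046 on the 3 FPKM fits and -0.12 to 0.11 with 1 library left out. Scin was at 0.021 on log2(FPKM + 0.1), 0.0085 without a filter, 0.0019 in WT libraries alone, 0.0062 with their block and -0.94 to 0.64 with 1 library left out. Pdpn was at -0.023 on the 3 FPKM fits and -0.025 to 0.10 with 1 library left out. Phospho1 was at 0.024 on log2(FPKM + 0.1), 0.0092 on both log2(FPKM + 1) fits and -0.50 to 0.15 with 1 library left out. Ifi27 ran from -0.27 to 0.19 and Ddx3y from -0.97 to 1.59 with 1 library left out. Xist was at -0.063 on log2(FPKM + 0.1), -0.046 on both log2(FPKM + 1) fits and -0.22 to 0.42 with 1 library left out. The cause of these differences was not tested. Having 3 libraries per group and levels under about 1 CPM, as for Dlx3, Gli1 and Dll1, limit what could be called.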

Other observations

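Further gene families were counted by symbol, chosen after their values were seen and given with no test of the family. Over all 16318 genes 20.6% rose and 17.9% fell. Glutathione S-transferases, which conjugate toxic compounds, rose in 10 of 13 tested genes with no fall (median 1.03). Protocadherins, adhesion proteins of neural and connective tissue whose clustered genes share exons, rose in 27 of 54 and fell in 3 (median 0.59). Aldehyde dehydrogenases had 11 rises and 1 fall of 18, and the ADAMTS and ADAMTS-like family 15 rises and 1 fall of 22.

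Tubulins fell in 9 of 14 with no rise, and subunits of the CCT chaperonin, which folds actin and tubulin, fell in 8 of 9. RNA polymerase subunits had 12 falls and no rise of 28, translation initiation factors 14 falls and 1 rise of 42, and proteasome subunits 11 falls and 3 rises of 38. Mitochondrial ribosomal proteins had 10 falls and no rise of 77, a smaller share than that of all genes, and complex I subunits 2 rises and 1 fall of 36.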
